A study of Mus musculus with 12 samples.

Results

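Axon guidance ligands and their receptors were examined in the tongue of mouse embryos at E13.5 (embryonic day 13.5). They comprised every gene with a single symbol among the semaphorins, plexins, neuropilins, netrins, netrin receptors (Dcc, Neo1 and Unc5a to Unc5d), Slit and Robo proteins, ephrins and Eph receptors. The rule gave 71 genes of the 18193 measured, 37 ligands, 33 receptors and Plxna4os1, an RNA named after the Plxna4 locus. Arrays of 6 control tongue samples of genotype Myf5-Cre;Smad4flox/+ were compared with arrays of 6 mutant samples of genotype Myf5-Cre;Smad4flox/flox, all on C57BL/6J. Every embryo therefore carried Cre recombinase made under Myf5 control, and the controls carried 1 floxed copy of Smad4. Smad4 passes on signals of the TGF-β and BMP receptors, and in the mutants it can be removed only from cells of the Myf5-expressing lineage, chiefly skeletal muscle, while the other cells of the tongue keep it. The labels call the arrays of a genotype biological replicates. The number of tongues per sample, the litters and the array batches are not known here, so p-values measure the spread between these samples.

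Guidance proteins steer growing axons, and many of them also steer migrating cells and vessels. Class 3 semaphorins are secreted and act mostly through a neuropilin bound to a class A plexin, whereas class 4, 5 and 6 semaphorins sit in the membrane and bind plexins directly. Netrins attract axons that carry Dcc and repel those that carry an Unc5 receptor, and Slit proteins repel axons through Robo receptors. Ephrins and Eph receptors signal between touching cells, in both directions. The embryonic tongue is entered by motor axons of the hypoglossal nerve and by sensory axons, while its muscle is built by cells that migrated in.

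Each value is a log2 signal of 1 Affymetrix probe set, the brightest of its gene over the 12 arrays. Signals of different probe sets do not rank the transcripts, so only differences between arrays are compared. A difference is mutant minus control on the log2 scale, ± its standard error (SE), and a gene passed where its adjusted p from limma, taken over all 18193 genes, was under 0.05. Whole tongues were measured, so fewer cells of a type and less RNA per cell cannot be told apart.

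The arrays correlated at 0.991 to 0.997 with each other. On the first principal component of all genes (35.0% of the variance), every mutant lay above every control, with mutants 1 and 2 farthest, at 24.7 and 20.3, and mutant 5 nearest, at 2.90. Control 3, mutant 4 and mutant 6 carried signal of both sexes: Xist, made in female cells, read 12.40, 8.73 and 7.88, and the Y-linked Eif2s3y read 6.03, 9.03 and 8.88. A ribosomal 18S probe set was low on control 6 and mutant 6, at 13.74 and 13.27 against 14.19 to 14.37 on the other arrays. Smad4 read 12.16 to 12.35 in controls, 11.58 on mutant 1 and 12.18 to 12.30 on the other mutants (−0.15 ± 0.10, adjusted p = 0.427). The sources do not place its probe set inside or outside the deleted part, so it does not check the deletion. Some muscle and epithelial markers read high in controls, as in Myl4, an embryonic myosin light chain (13.69 ± 0.14 SD, n = 6), and Krt15, a basal keratin (12.79 ± 0.34 SD, n = 6). Others read lower, such as the muscle marker Pax7 (9.09) and the epithelial marker Cldn4 (9.00).

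Of the 71 genes, 14 were higher in the mutant, 4 were lower and 53 did not pass. The largest rises were those of Dcc and Unc5d, which are netrin receptors, and the largest fall was that of the secreted semaphorin Sema3e. Among all genes tested 11.1% passed, 6.3% as higher and 4.8% as lower, against 25.4%, 19.7% and 5.63% of the guidance genes. The share of rises among the guidance genes was thus above that of all genes and the share of falls close to it. All genes include many dim ones, whereas 10 of the 71 lay below the median of all probe sets (6.13). With genes below it left out, 2265 genes passed (1358 higher) out of fewer tested, and 20 guidance genes (15 higher). The excess over genes of like brightness was not measured. The median difference was 0.13 over the guidance genes and 0.01 over all genes, and 50 of the 71 (70.4%) lay above 0, against 52.9% of all genes. At an unadjusted p under 0.05 there were 37 of the 71, against 24.8% of all genes. The genotypes did not overlap for 10 of the 71 genes (14.1%, against 6.3% of all genes), with the mutants higher for 7 (3.4% of all genes) and lower for 3 (2.9%). Among ligands, 9 of 37 rose and 3 fell, and among receptors 5 of 33 rose and 1 fell. Most changes were small, since 4 of the 18 passing genes, Dcc, Unc5d, Sema3e and Sema3b, differed by 1.5-fold or more. Over all genes, 395 of the 2020 passing genes did so. Set against all genes tested, these are 4 of 71 guidance genes and 2.17% of the 18193. Without mutants 1 and 2, 8 genes were higher and 3 lower, and without control 3, mutant 4 and mutant 6, 7 were higher and 4 lower, 1 of the latter being Epha6, which did not pass with all arrays.

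**Figure D1:**
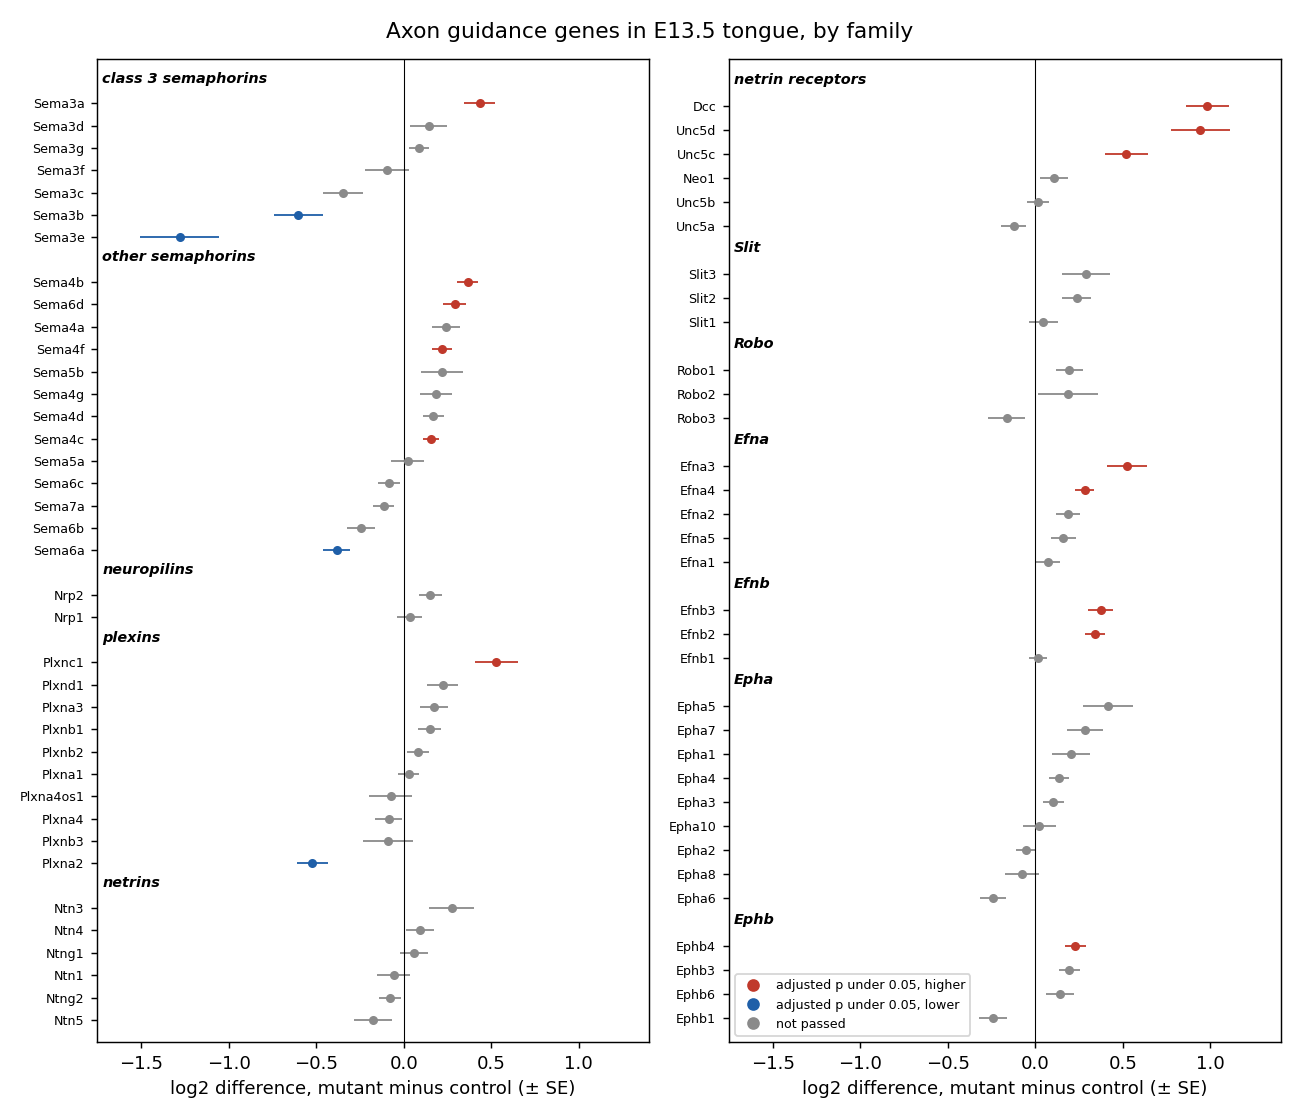
Log2 difference (mutant minus control, horizontal axis) of the 71 guidance genes by family, with bars of ± 1 SE from limma over 6 control and 6 mutant arrays. Red and blue points passed as higher and lower, and grey points did not pass. Dcc (0.98) and Unc5d (0.94) lie farthest to the right and Sema3e (−1.28) farthest to the left.

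Class 3 semaphorins changed in both directions. Of 7 measured, Sema3e and Sema3b fell and Sema3a rose, with a family median of −0.10. Sema3e, which signals through plexin D1 and guides both axons and vessels, read 6.65, 7.17 and 7.61 (lowest, median and highest) in controls and 5.18, 5.99 and 6.55 in mutants. Every mutant array was below every control, with mutants 6 and 1 lowest. The difference was −1.28 ± 0.23, a 2.43-fold reduction (adjusted p = 0.00287). It was repeated by dimmer Sema3e probe sets at −0.65 (adjusted p = 0.0276 over all probe sets) and −0.56 (0.0190), while the dimmest gave −0.31 (0.0875).

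Sema3b, a neuropilin ligand, read 7.12, 7.78 and 8.02 in controls and 6.86, 7.04 and 7.43 in mutants, 1.52-fold lower (−0.60 ± 0.14, adjusted p = 0.0132). Control 1 alone reached into the mutants, below mutants 2 and 6. Its other probe sets gave −0.21 and −0.26 and did not pass. Sema3c, a guide of neurons and of neural crest cells, was also on the low side in mutants, at 11.20, 11.45 and 11.62 against 11.33, 11.81 and 12.12. Its difference of −0.35 ± 0.11 did not pass (adjusted p = 0.0677, and 0.00661 to 0.250 over the alternatives). Control 1 was the lowest control here too, and without it the difference was −0.44 (adjusted p = 0.00661). Without control 3, mutant 4 and mutant 6, Sema3b differed by −0.58 and no longer passed (adjusted p = 0.0979).

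Sema3a, which repels sensory and motor axons through neuropilin 1, moved the other way. It read 9.79, 9.92 and 10.17 in controls and 10.16, 10.37 and 10.64 in mutants, 1.35-fold higher (0.43 ± 0.09, adjusted p = 0.00550). All mutants but mutant 5 lay above every control. A dimmer Sema3a probe set rose by 0.35 (adjusted p = 0.0143 over all probe sets). Without control 3, mutant 4 and mutant 6 the adjusted p of Sema3a was 0.0530, at a difference of 0.42. Sema3d, the protein-coding gene next to Sema3a in the RefSeq order of chromosome 5, differed by 0.14 ± 0.11 (adjusted p = 0.457). The remaining members, Sema3f and Sema3g, differed by −0.10 and 0.09 and did not pass, but a pair of dimmer Sema3f probe sets each rose by 0.24 (adjusted p = 0.00746 and 0.0143 over all probe sets).

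The start regions of Sema3e, of its family member Sema3a and of Plxna2, a plexin that fell (below), are shown because Sema3e and Plxna2 fell and Sema3a rose. Each is the RefSeq window of 300 bases of build GRCm38.p6, from 250 before to 50 after the annotated start, with every E-box in capitals. An E-box, CANNTG, is the motif that basic helix-loop-helix factors such as Myf5 and Myod1 bind, and it reads the same on both strands. The Sema3e window is chr5:14025026-14025325, the Sema3a window chr5:13396534-13396833 and the Plxna2 window chr1:194619579-194619878, all on the plus strand.
Sema3e: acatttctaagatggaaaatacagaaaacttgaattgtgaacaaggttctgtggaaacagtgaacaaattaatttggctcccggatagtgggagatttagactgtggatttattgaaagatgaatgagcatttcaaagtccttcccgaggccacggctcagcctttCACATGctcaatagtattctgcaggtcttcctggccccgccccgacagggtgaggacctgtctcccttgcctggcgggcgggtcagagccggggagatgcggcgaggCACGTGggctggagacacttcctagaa
Sema3a: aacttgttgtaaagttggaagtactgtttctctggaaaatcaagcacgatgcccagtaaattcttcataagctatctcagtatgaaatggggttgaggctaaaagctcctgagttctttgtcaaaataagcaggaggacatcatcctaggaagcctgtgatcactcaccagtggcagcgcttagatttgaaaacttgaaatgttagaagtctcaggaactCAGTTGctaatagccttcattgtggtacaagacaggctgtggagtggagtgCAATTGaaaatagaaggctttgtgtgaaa
Plxna2: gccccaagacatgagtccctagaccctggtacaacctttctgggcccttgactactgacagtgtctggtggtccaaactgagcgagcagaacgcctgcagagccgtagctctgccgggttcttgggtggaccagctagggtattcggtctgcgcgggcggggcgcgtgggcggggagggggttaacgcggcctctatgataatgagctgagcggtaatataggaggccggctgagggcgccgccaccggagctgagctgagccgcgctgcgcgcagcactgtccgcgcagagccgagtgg
The Sema3e and Sema3a windows each held 2 E-boxes and the Plxna2 window held 0. Of 32851 RefSeq windows of this length, 72.3% held an E-box. CAGCTG, a form of it favoured by muscle factors, lay in 0 of the 3 windows and in 16.3% of all windows. CAGAC, the core of SMAD sites read on either strand, occurred 2 times for Plxna2, 0 times for Sema3e and Sema3a, and in 49.6% of all windows. Windows were matched for 60 of the 71 genes, with a median GC content of 64.2% against 52.7% over all windows. These matches are letters only and say nothing of binding.

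Of the membrane-bound semaphorins, 3 of 6 in class 4 rose and 0 fell, and 1 of 4 in class 6 rose and 1 fell. Over all genes 6.3% passed as higher and 4.8% as lower. By their brightest probe sets all 6 class 4 members lay above 0, as did 52.9% of all genes and 70.4% of the guidance genes. Sema4c passed in only 8 and Sema4f in 16 of the 24 alternatives. Sema4b read 7.95, 8.04 and 8.11 in controls and 8.19, 8.44 and 8.54 in mutants, with no overlap, 1.29-fold higher (0.37 ± 0.06, adjusted p = 0.00187). Mutant 6 was the nearest to the controls. Sema4f read 6.75, 6.82 and 6.93 against 6.95, 7.0 and 7.27, also without overlap (0.22 ± 0.06, adjusted p = 0.0267), and its other probe set rose by 0.57 (0.0186 over all probe sets). Sema4c, a ligand of plexin B2, read 9.10, 9.25 and 9.33 against 9.32, 9.41 and 9.45 (0.16 ± 0.05, adjusted p = 0.0424). Sema4c had the highest adjusted p of the 18. Its call was lost when any array but control 6 or mutant 5 was left out, with adjusted p of 0.0532 to 0.0980 in those 10 cases. The Sema4f call was lost without control 2 (adjusted p = 0.0567), control 5 (0.0515), control 6 (0.0534) or mutant 1 (0.0623). It was also lost without mutants 1 and 2 (0.0855), without control 3, mutant 4 and mutant 6 (0.0934), without control 6 and mutant 6 (0.0682) and in an unequal-variance test (0.0527). Sema4a (0.24), Sema4d (0.17) and Sema4g (0.18) did not pass, and Sema4a passed without control 1 (0.28, adjusted p = 0.0436). A dimmer Sema4d probe set gave −0.20 (adjusted p = 0.106 over all probe sets).

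In class 6, Sema6a fell and Sema6d rose. Sema6a, a transmembrane ligand of plexins A2 and A4, read 8.18, 8.31 and 8.61 in controls and 7.81, 7.95 and 8.12 in mutants, 1.30-fold lower (−0.38 ± 0.08, adjusted p = 0.00648). Every mutant was below every control. The other Sema6a probe sets gave −0.18 and −0.17 and did not pass (adjusted p = 0.101 and 0.125 over all probe sets). Sema6d, a ligand of plexin A1, read 10.55, 10.69 and 10.93 against 10.87, 11.01 and 11.08, 1.22-fold higher (0.29 ± 0.07, adjusted p = 0.0115). Mutant 5 alone lay within the controls, reaching below control 3. The 3 other Sema6d probe sets, all dim, gave −0.20 (adjusted p = 0.0579 over all probe sets), −0.02 and −0.08, and the mean of its 4 probe sets did not pass (−0.0025, adjusted p = 0.988). Sema6b (−0.24 ± 0.08, adjusted p = 0.0643) and Sema6c (−0.08) did not pass. Without mutants 1 and 2, Sema6a differed by −0.34 (adjusted p = 0.0515) and Sema6d by 0.25 (0.0805). Sema5b (0.22), Sema5a (0.02) and Sema7a (−0.11) did not pass. The second probe set of Sema5a rose by 0.44 (adjusted p = 0.00636 over all probe sets).

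**Figure D2:**
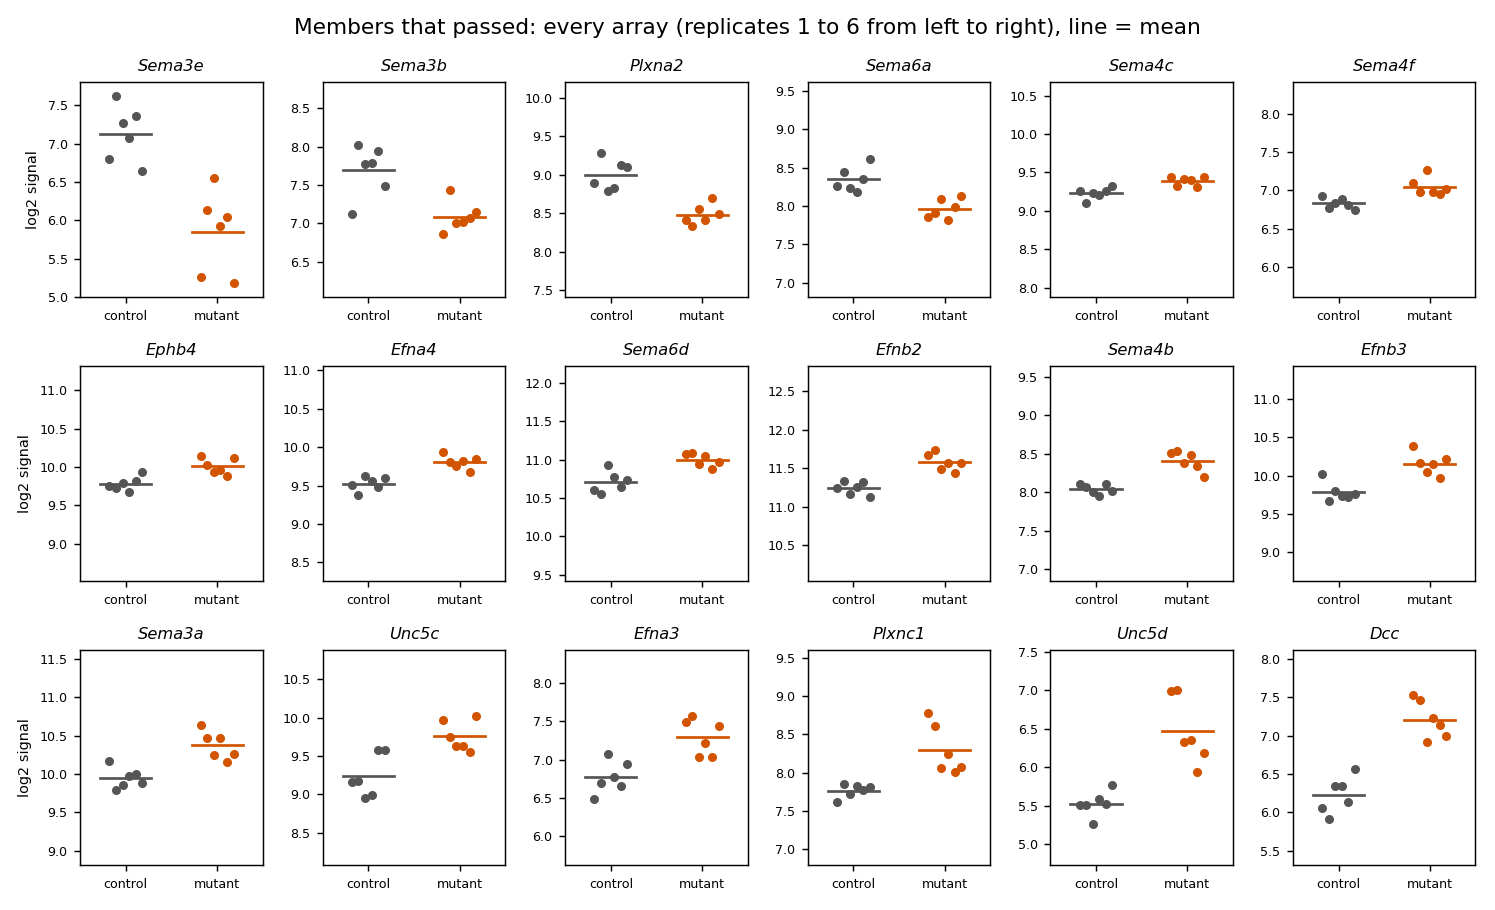
Log2 signal (vertical axis, a window of the same height in every panel) of the 18 genes that passed, with 1 point per array, grey for 6 controls and orange for 6 mutants, and a line at the group mean. Panels run from the largest fall, Sema3e, to the largest rise, Dcc, and the groups do not overlap in 10 of them.

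Receptors of the semaphorins showed 1 fall and 1 rise among 10 entries of the plexin family, and 0 calls among the neuropilins. Plxna2, a receptor for Sema6a and a partner of neuropilins, read 8.78, 9.00 and 9.28 in controls and 8.33, 8.45 and 8.70 in mutants. All mutants lay below all controls, and the difference was −0.52 ± 0.09, 1.44-fold lower (adjusted p = 0.00221). The 3 other Plxna2 probe sets fell as well, by 0.42, 0.62 and 0.67 on the log2 scale (adjusted p = 0.00170, 0.000512 and 0.000870 over all probe sets). Its ligand Sema6a fell too by its brightest probe set (−0.38, above).

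Plxnc1, the receptor of Sema7a, read 7.61, 7.80 and 7.85 in controls and 8.01, 8.15 and 8.78 in mutants, 1.44-fold higher (0.53 ± 0.12, adjusted p = 0.0134). Its rise was carried unevenly, with mutants 1 and 2 at 8.78 and 8.61 and the other mutants at 8.01 to 8.24, still above every control. Plxnc1 did not pass in an unequal-variance test (adjusted p = 0.0799), nor as the mean of its probe sets (0.16, 0.0694), most of which were dim. Plxnd1, the Sema3e receptor, differed by 0.22 ± 0.09 (adjusted p = 0.133, 95% interval 0.03 to 0.41), while Sema3e fell. Plxnb1 (0.15, adjusted p = 0.180), Plxna3 (0.17), Plxna1 (0.03), Plxna4 (−0.09) and Plxnb3 (−0.09) did not pass. Plxnb2, the receptor of Sema4c, read 11.36, 11.46 and 11.62 in controls and 11.39, 11.55 and 11.75 in mutants (0.08 ± 0.06, adjusted p = 0.490). Mutant 6 alone lay above every control. The second Plxnb1 probe set rose by 0.31 (adjusted p = 0.0106 over all probe sets). Plxna4os1 differed by −0.07 (adjusted p = 0.780).

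Neuropilin 1, the co-receptor of Sema3a and of VEGF, stayed within the spread of the controls. Nrp1 read 12.30, 12.51 and 12.70 in controls and 12.34, 12.53 and 12.70 in mutants, a difference of 0.03 ± 0.07 (adjusted p = 0.834) whose 95% interval runs from −0.12 to 0.19. Nrp2 differed by 0.15 ± 0.06 (adjusted p = 0.153, 95% interval 0.02 to 0.29).

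Netrin receptors held the largest rises, with 3 of 6 passing as higher. Of 6 netrins 0 passed, while 11.1% of all genes passed, 6.3% as higher. The difference between netrins and their receptors was not tested. Dcc, the receptor through which netrin 1 attracts axons, read 5.91, 6.24 and 6.56 in controls and 6.91, 7.18 and 7.52 in mutants. Every mutant was above every control, with mutants 1 and 2 highest. Dcc rose by 0.98 ± 0.12, 1.98-fold (adjusted p = 0.000437). A Dcc probe set that read 5.81 in controls also rose, by 0.76, with an adjusted p over all probe sets of 0.000552. Another, brighter in controls at 6.09, gave −0.16 (0.192). The chosen one averaged 6.22 in controls, so in controls all Dcc probe sets lay near the median of all probe sets (6.13).

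Unc5d and Unc5c, receptors that mediate repulsion by netrins, rose with it. Unc5d read 5.25, 5.51 and 5.77 in controls and 5.93, 6.34 and 7.0 in mutants, 1.92-fold higher (0.94 ± 0.17, adjusted p = 0.00278). The groups did not overlap, though mutants 1 and 2 lay apart, at 6.99 and 7.0 against 5.93 to 6.36 on the other mutants. Unc5d was dim, below the median of all probe sets (6.13). Unc5c read 8.95, 9.17 and 9.58 against 9.56, 9.69 and 10.02, 1.43-fold higher (0.52 ± 0.12, adjusted p = 0.0144). Controls 5 and 6 reached the level of the lowest mutant, mutant 5. A second Unc5c probe set rose by 0.51 (adjusted p = 0.0196 over all probe sets). Unc5c did not pass without mutants 1 and 2 (0.47, adjusted p = 0.0810), without control 3, mutant 4 and mutant 6 (0.43, 0.0991) or in an unequal-variance test (0.0530).

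Unc5a, Unc5b and Neo1, a relative of Dcc that binds netrins and RGM proteins, did not pass. Unc5a differed by −0.12 ± 0.07 (adjusted p = 0.308) and Neo1 by 0.11 ± 0.08 (0.453). Probe sets of Unc5b disagreed, with the brightest at 0.02 ± 0.06 and a slightly dimmer one lower by −0.41 (adjusted p = 0.0424 over all probe sets). On the ligand side, Ntn1 read 9.53, 9.82 and 10.03 in controls and 9.59, 9.70 and 9.95 in mutants. Its difference of −0.06 ± 0.10 had a 95% interval from −0.26 to 0.15, so a change of the size seen for Dcc lies outside it. Ntn3, which was dim, read 4.75, 5.07 and 5.35 in controls and 5.03, 5.38 and 5.74 in mutants (0.27 ± 0.13, adjusted p = 0.201), with 3 mutants above every control. Ntn4 (0.09), Ntn5 (−0.18) and the membrane-anchored netrins Ntng1 (0.06) and Ntng2 (−0.08) did not pass. A second Ntng1 probe set rose by 0.45 (adjusted p = 0.0165 over all probe sets).

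Slit ligands and Robo receptors gave 0 calls among 6 genes, with 2 at an unadjusted p under 0.05. Slit2, the main repellent of the family, read 10.52, 10.64 and 10.97 in controls and 10.67, 10.95 and 11.06 in mutants (0.24 ± 0.08, adjusted p = 0.0819, and 0.0210 to 0.235 over the alternatives). Robo1, its receptor, read 10.69, 10.99 and 11.11 against 10.89, 11.19 and 11.30 (0.19 ± 0.08, adjusted p = 0.136). Mutant 6 lay inside the controls for each, and for Slit2 control 5 lay above mutants 1, 5 and 6. Slit2 passed without control 5 (0.30, adjusted p = 0.0210) or mutant 6 (0.29, 0.0302), and Robo1 without mutant 6 (0.25, 0.0379). Slit3 (0.29 ± 0.14), Slit1 (0.05), Robo2 (0.18 ± 0.17) and Robo3 (−0.16) did not pass, and the probe sets of Robo2 and Robo3 were dim.

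Of 8 ephrins 4 rose and 0 fell, and of 13 Eph receptors 1 rose and 0 fell. The difference between these families was not tested. All 8 ephrins lay above 0, as did 52.9% of all genes. Efnb2, a ligand of EphB receptors in nerve and in arteries, read 11.12, 11.25 and 11.33 in controls and 11.43, 11.57 and 11.74 in mutants, with no overlap, 1.27-fold higher (0.34 ± 0.06, adjusted p = 0.00248). A second bright Efnb2 probe set rose by 0.40 (adjusted p = 0.00307 over all probe sets). Efnb3 read 9.67, 9.75 and 10.02 against 9.97, 10.16 and 10.38, 1.29-fold higher (0.37 ± 0.07, adjusted p = 0.00538). Mutant 5 lay just below control 1, and the other mutants were above all controls. Without control 3, mutant 4 and mutant 6 the adjusted p of Efnb3 was 0.0590, at 0.36. Efnb1 differed by 0.02 ± 0.05 (adjusted p = 0.896, 95% interval −0.10 to 0.13).

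Ephrins of the A type, which are anchored by a lipid, included a pair of neighbouring genes that rose. Efna3 read 6.49, 6.74 and 7.07 in controls and 7.03, 7.33 and 7.57 in mutants, 1.44-fold higher (0.52 ± 0.12, adjusted p = 0.0106), and its second probe set rose by 0.36 (0.00984 over all probe sets). Mutants 3 and 5 lay just below control 3. Efna4 read 9.38, 9.53 and 9.63 against 9.67, 9.82 and 9.94, without overlap, 1.22-fold higher (0.28 ± 0.06, adjusted p = 0.00507). Efna1, Efna3 and Efna4 follow each other on chromosome 3 in the RefSeq order, and Efna1 differed by 0.07 ± 0.07 (adjusted p = 0.602). Efna2 (0.19 ± 0.07, adjusted p = 0.0961) and Efna5 (0.16 ± 0.07, 0.181) did not pass. Efna2 passed without control 1 (0.23, adjusted p = 0.0273), and its second probe set rose by 0.32 (0.00130 over all probe sets). Without mutants 1 and 2, Efna3 differed by 0.41 (adjusted p = 0.0706).

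The Eph receptor that passed was Ephb4. Ephb4, the receptor of Efnb2 best known from veins, read 9.68, 9.77 and 9.93 in controls and 9.89, 9.99 and 10.15 in mutants, 1.17-fold higher (0.23 ± 0.06, adjusted p = 0.0214). Mutant 5 was below control 6 and the other mutants were above all controls. The call was lost without control 4 (adjusted p = 0.0524), mutant 1 (0.0535), mutants 1 and 2 (0.19, 0.121), or control 3, mutant 4 and mutant 6 (0.22, 0.115). Ephb3 lay just outside the threshold (0.19 ± 0.06, adjusted p = 0.0510), passing without control 1 (0.0272) or mutant 2 (0.0369), and Ephb1 differed by −0.24 ± 0.08 (0.0720) and Ephb6 by 0.14 (0.307).

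EphA receptors gave 0 calls among 9 genes by the brightest probe set, with 4 at an unadjusted p under 0.05. Epha7, a receptor of A-type ephrins, read 11.03, 11.41 and 11.70 in controls and 11.45, 11.71 and 11.92 in mutants (0.28 ± 0.10, adjusted p = 0.103). Its 3 dimmer probe sets rose by 0.42, 0.37 and 0.45 (adjusted p = 0.00427, 0.0319 and 0.0190 over all probe sets). Epha5 differed by 0.42 ± 0.14 (adjusted p = 0.0791) and passed without mutant 5 (0.50, 0.0270), and 1 of its dimmer probe sets rose by 0.63 (0.0111). Epha3 read 12.10, 12.20 and 12.29 against 12.10, 12.32 and 12.43 (0.10 ± 0.06, adjusted p = 0.337). Epha4 differed by 0.13 ± 0.06 (adjusted p = 0.168, 95% interval 0.01 to 0.26), but its dimmer probe sets gave −0.06, −0.13, 0.08 and −0.06 and did not pass. Epha1 differed by 0.21 ± 0.11 (adjusted p = 0.265) while its dimmest probe set was lower by −0.26 (0.0346 over all probe sets). Epha6 (−0.24 ± 0.08, adjusted p = 0.0581) was dim, at 3.87 in controls, and passed without mutant 4 (−0.30, 0.0150). Epha2, Epha8 and Epha10 differed by −0.08 to 0.02.

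**Figure D3:**
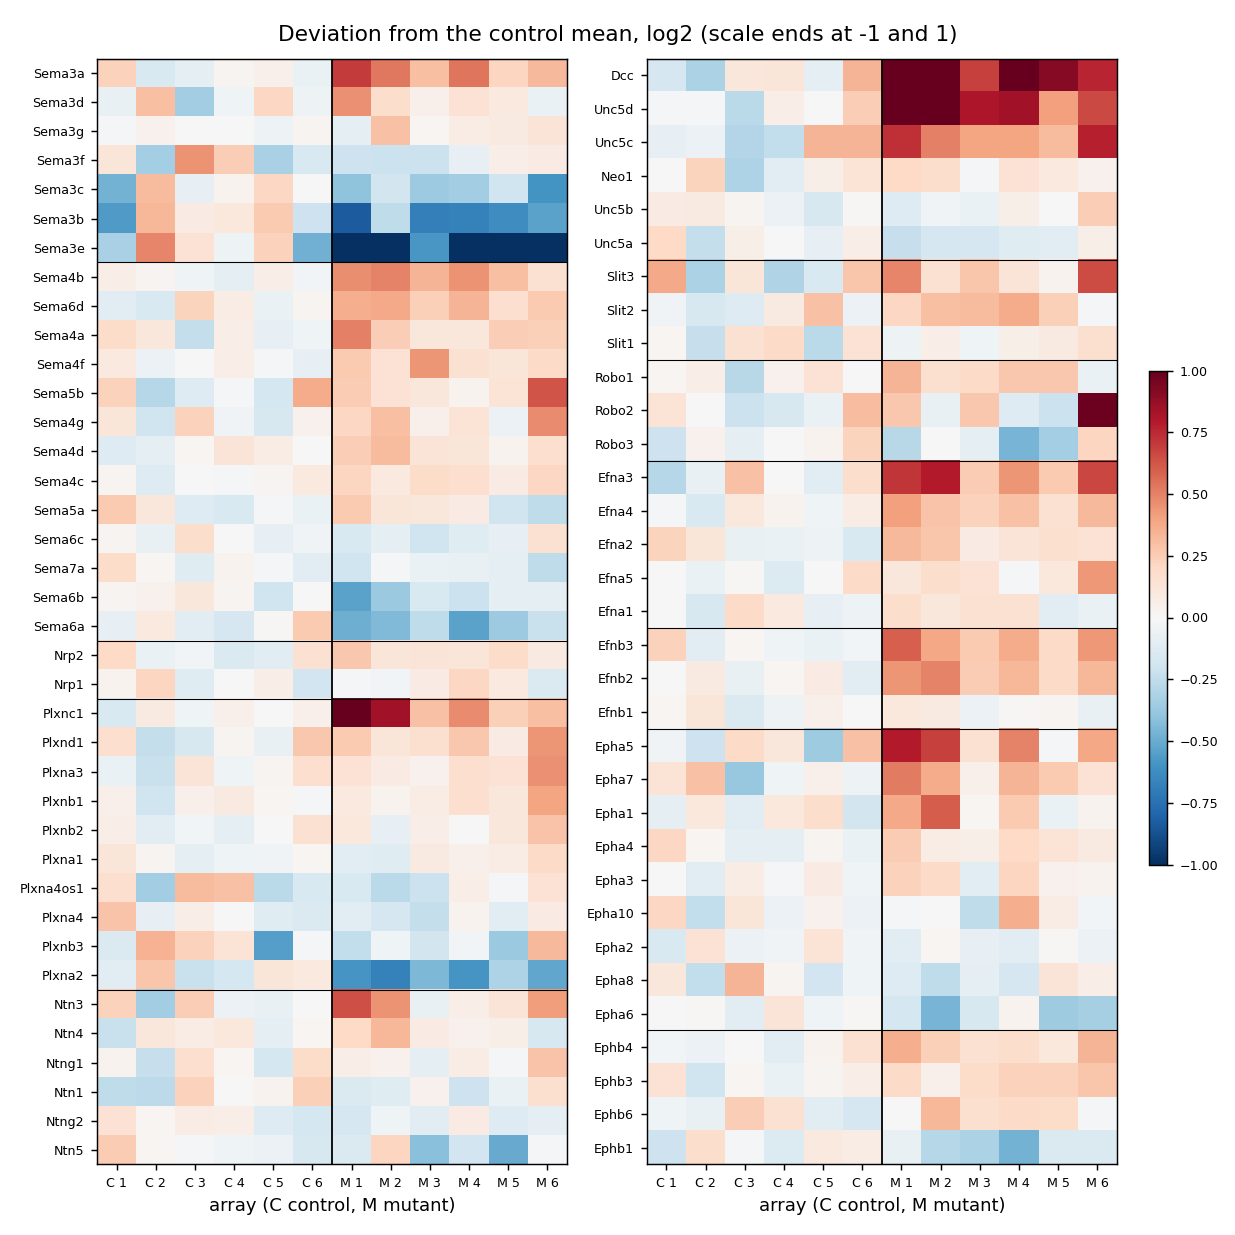
Deviation of each gene from its control mean on the log2 scale (colour, red higher and blue lower) on 6 control and 6 mutant arrays, with families set apart by lines. Dcc, Unc5d and Plxnc1 are most intense on mutants 1 and 2, and Sema3e is below the control mean on every mutant array.

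Mutant arrays differed in the size of these changes. Of the 14 genes that rose, 7 were highest on mutant 1 and 5 on mutant 2, and 11 were lowest on mutant 5. The median deviation of all 71 genes from the control mean was 0.19 on mutant 1 and 0.06 to 0.15 on the other mutants, against −0.06 to 0.02 on the controls. Of the 18 passing genes, 7 passed in every alternative in which they were tested, namely Dcc, Unc5d, Sema3e, Plxna2, Sema4b, Efnb2 and Efna4.

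Other probe sets of the same genes were compared to see whether the calls rest on a single one. The 71 genes had 162 probe sets, and 48 genes had more than 1. The 18 passing genes had 29 other probe sets, of which 23 had the sign of the chosen one and 11 passed with that sign, while 0 passed with the opposite sign. Of the 13 that were not dim by their mean over both genotypes, 10 passed with that sign. That mean includes the changed group, so this count is not separate support. A Dcc probe set that rose, at 5.81 in controls and 6.56 in mutants, counted as not dim. The Dcc probe set that disagreed, at 6.09 and 5.93, counted as dim. For 8 of the 18 genes another probe set passed, and 5 genes had only 1 probe set. Among genes that did not pass, 13 other probe sets passed over all probe sets.

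**Figure D4:**
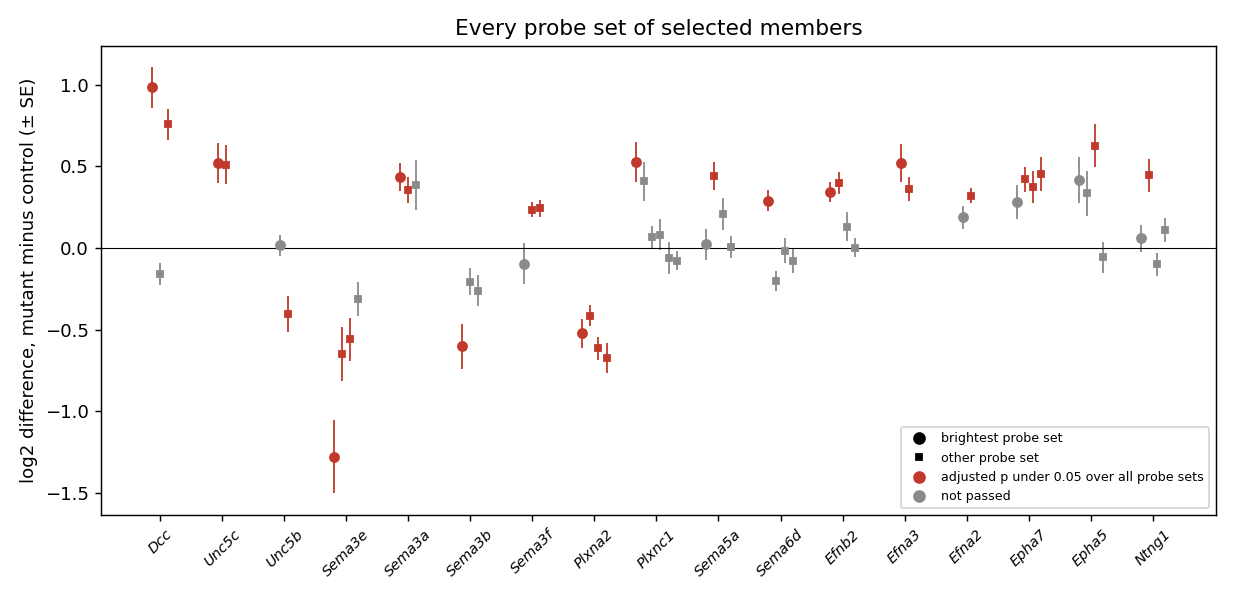
Log2 difference (mutant minus control, ± SE) of every probe set of selected genes, with a circle for the brightest and squares for the others, ordered from bright to dim. Red marks an adjusted p under 0.05 over all probe sets. The Plxna2 probe sets all lie at −0.42 or lower, the squares of Epha7 lie at 0.37 to 0.45, and those of Sema3f and Unc5b differ from their circles.

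Further genes of the guidance pathways were read from a pair of lists. Of 15 other cues and axonal adhesion molecules, 5 rose and 1 fell, with a median of 0.14. Over all genes 6.3% rose and 4.8% fell. L1cam and Chl1, adhesion molecules that accompany semaphorin receptors on axons, rose by 0.49 ± 0.09 (adjusted p = 0.00278) and 0.40 ± 0.09 (0.00856). Flrt2 and Flrt3, which bind Unc5 receptors, rose by 0.35 ± 0.06 (adjusted p = 0.00358) and 0.35 ± 0.08 (0.0112), and Cntn1, a contactin, by 0.49 ± 0.13 (0.0211). Islr2, a membrane protein of growing axons, fell by 0.87 on the log2 scale (SE 0.15, adjusted p = 0.00208), below every control on 6 of 6 mutant arrays.

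Of 48 measured signal transducers of guidance receptors, 9 rose and 5 fell (6.3% and 4.8% of all genes), with a median of 0.05. Crmp1 and Dpysl3, cytoplasmic mediators of semaphorin signals, rose by 0.64 ± 0.09 (adjusted p = 0.000768) and 0.51 ± 0.11 (0.00766). Gap43, a growth cone protein, rose by 0.56 ± 0.11 (adjusted p = 0.00572) and Tiam1, a Rac activator, by 0.39 ± 0.07 (0.00293). Ablim3, an actin-binding protein also made in muscle, fell by 1.05 on the log2 scale (SE 0.15, adjusted p = 0.000822), and Chn1, a Rac inhibitor downstream of EphA4, by 0.60 (SE 0.11, 0.00390).

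Markers of several cell types moved on the same arrays. For the counts that follow, 6.3% of all genes passed as higher and 4.8% as lower. Of 13 neuron markers 11 rose and 0 fell, and their mean deviation was 0.28 to 1.01 on the mutants against −0.12 to 0.11 on the controls. Examples of the rises are Snap25 (1.51 ± 0.18), Tubb3 (0.89 ± 0.12) and Elavl4 (0.60 ± 0.08). Dcx, added because it lay the other way, differed by −0.24 ± 0.10 and did not pass (adjusted p = 0.153). All 16 skeletal muscle markers fell, with means of −1.15 to −0.47 against −0.24 to 0.11, such as Myf5 (−1.81 ± 0.20), Pax7 (−1.35 ± 0.16) and Myl4 (−0.66 ± 0.08). The neuron mean was highest on mutant 2 (1.01), followed by mutant 1 (0.80), and the muscle mean was lowest on mutant 1. Dcc, Unc5d and Plxnc1 were highest on mutants 1 and 2, but Unc5c was highest on mutant 6 (10.02) and Sema4f on mutant 3 (7.27). The mesenchyme means (0.54 on mutant 1, 0.49 on mutant 2) and epithelial means (0.46 and 0.48) were also highest on mutants 1 and 2. Mutant 6, with the lowest neuron mean among the mutants (0.28), read 6.99 for Dcc and had the lowest Sema3e signal (5.18).

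The mesenchyme and cartilage means also lay above all controls on every mutant. Of 10 mesenchyme markers 8 rose, among them Dlx5 (0.68 ± 0.10), Prrx1 (0.61 ± 0.10) and Pdgfra (0.41 ± 0.07), with means of 0.21 to 0.54 on the mutants and −0.08 to 0.13 on the controls. Of 9 cartilage and bone markers 5 rose, with means of 0.26 to 0.44 against −0.12 to 0.20, and they included Col9a2 (0.69 ± 0.11), Col9a3 (0.64 ± 0.10) and Sox9 (0.44 ± 0.07). Of 12 epithelial markers 5 rose (means 0.13 to 0.48 against −0.23 to 0.15), including Krt15 (0.63 ± 0.15), Cldn4 (0.46 ± 0.07) and Esrp1 (0.39 ± 0.09). Markers of glia changed in both directions. Fabp7 (1.00 ± 0.15) and S100b (0.79 ± 0.12) rose and Erbb3 (−0.51 ± 0.07) fell, with 2 rises and 2 falls among 8 (means 0.04 to 0.21 against −0.12 to 0.15). Endothelium and macrophages gave 1 rise each, Sox18 (0.24 ± 0.06) among 11 and Csf1r (0.21 ± 0.06) among 8. The endothelial mean was −0.05 to 0.16 on the mutants against −0.09 to 0.10 on the controls, with 2 mutants above every control. The macrophage mean was 0.03 to 0.24 against −0.06 to 0.07, with 5 mutants above every control. With 6.3% of all genes higher, 1 call in a list this short is not read as a change of the cell type. The part of these cell types in the changes of the guidance genes was not tested.

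**Figure D5:**
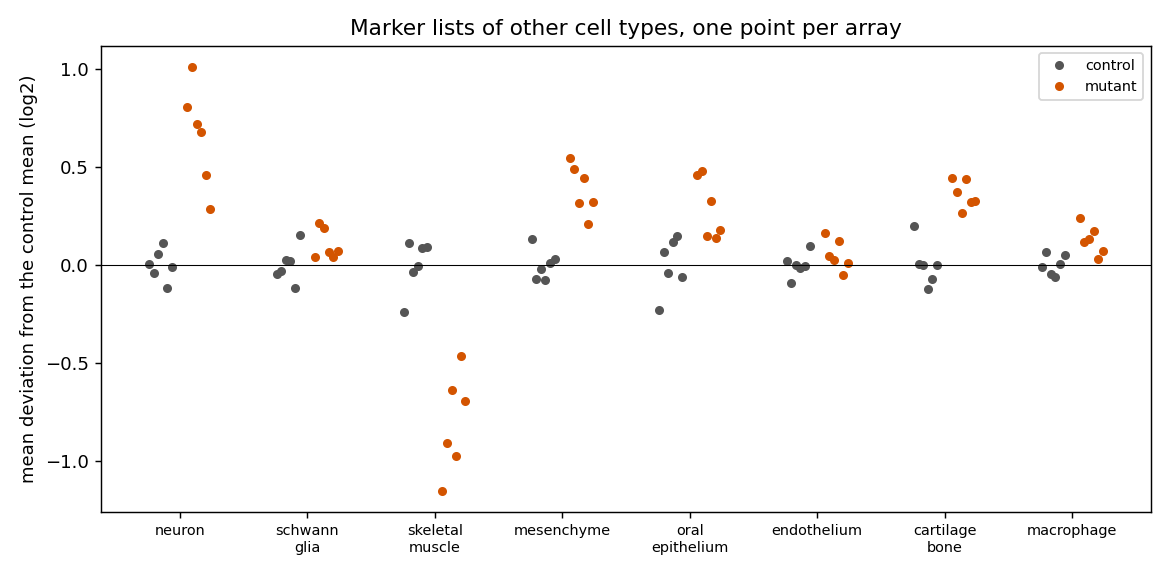
Mean deviation of each marker list from its control mean on the log2 scale (vertical axis), with 1 point per array, grey for 6 controls and orange for 6 mutants. Neuron (0.28 to 1.01), mesenchyme (0.21 to 0.54) and cartilage and bone (0.26 to 0.44) means lie above all controls on every mutant, and muscle means (−1.15 to −0.47) below.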

How the data were processed

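RNA of 12 tongue samples was measured on 1 array each. The deposited values are log2 signals per probe set, and the submitters' processing notes name RMA as the method the authors used. RMA corrects background, equalises arrays and combines the probes of a set, which would hide a shift common to most genes. Base 2 was inferred from their span, 2.57 to 15.09. Signals are not counts, so precision rests on how many arrays there are. The platform annotation gave 1 symbol to 34945 of 45101 probe sets, including 64 control probe sets that were left out, hence 18193 genes, each read from its brightest probe set. All 71 guidance genes matched RefSeq (GRCm38.p6) by symbol.

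Genotypes were contrasted in R 4.3.3 by limma 3.58.1 (lmFit, eBayes, 2-sided, no covariate), adjusting p by Benjamini-Hochberg over all genes. On simulated data for this contrast with 18193 genes, 200 of them shifted, 84% of genes shifted by 0.5 and 99% of genes shifted by 1 were found. Of the simulated calls 3.68% were false. The noise was drawn for each gene on its own, without the differences between whole arrays seen here. The figures therefore check the procedure and do not give the share of false calls in these data. The rule for genes singled out took those that passed, the brightest and smallest-p gene of each family and genes whose probe sets disagree, up to 6 passing genes per pathway list and up to 3 per marker list. Other guidance genes are given by their difference, and the marker Dcx was added outside the rule. The members and lists were chosen with earlier results of these data known. The 24 alternatives changed the normalization, centring, probe choice, dim filter, variance model, array weights, replicate block, test or arrays.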

Additional observations from a re-analysis of the deposited data

Results flagged for a closer look

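Of the 82 groups of 6 arrays looked at for the 41 named guidance genes, 4 held an array far from the others, about as many as chance gives, since such a flag arises in about 1 in 20 groups. Plxnb1 read 8.59 on control 2 (next control 8.77) and 9.18 on mutant 6 (next mutant 8.96). Robo1 read 10.69 on control 3, below the next control at 10.96. Sema4a read 8.25 on mutant 1, above the next mutant at 7.995. None of these genes passed in the comparison with all arrays.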

How the results depend on the processing

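In place of 18 guidance genes, 15 to 23 passed with single arrays left out (11 to 17 higher, 4 to 6 lower), with a median difference of 0.11 to 0.14. Without mutants 1 and 2 there were 11 (8 higher) with a median of 0.10, and over all genes 875 (379 higher, 496 lower) in place of 2020 (1147 and 873). Without control 3, mutant 4 and mutant 6 there were 11 (7 higher), and over all genes 836 (440 and 396). Over all genes, single arrays left out gave 1398 to 2103 calls, 733 to 1209 higher (733 without mutant 1, 763 without mutant 2) and 665 to 899 lower. Averaging a gene's probe sets gave a median of 0.081, and turned Sema6d to −0.0025 (adjusted p = 0.988), Sema3f to 0.13, Epha1 to −0.10 and Unc5b to −0.20. Unc5b gave −0.0078 with quantile normalisation, −0.049 without control 3, mutant 4 and mutant 6, and −0.029 without control 6 and mutant 6, and Sema5a gave −0.063 without mutants 1 and 2. With single arrays left out, Nrp1 ran from −0.0053 to 0.076, Sema5a from −0.026 to 0.077 and Unc5b from −0.031 to 0.043. With the replicate block 26 passed, 17 of the 18 among them and not Sema4c (0.16, adjusted p = 0.0518). Genes that passed with the block and not in the unblocked fit of all arrays included Epha7 (adjusted p = 0.0185), Sema4a (0.0263), Efna2 (0.0290), Sema3c (0.0310), Ephb3 (0.0336), Epha6 (0.0478) and Efna5 (0.0492). Same-numbered arrays correlated over 0.1 in their deviations in 5 of 6 pairs (−0.06 to 0.24), and 7 of 12 arrays correlated best with their own number. This is a hint of pairing from the data, but 1 pair did not and no label ties the numbers to a litter or batch, so the samples were treated as unpaired. The unequal-variance test kept 14 of the 18, losing Sema3b (adjusted p = 0.0566), Sema4f, Unc5c and Plxnc1. Unc5d could not be tested with dim probe sets left out. The cause of these shifts was not tested.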
